A study of Mus musculus with 19 samples.

Results

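SOX3 occupancy was described at 45 genes that run the cell cycle: 9 cyclins, 5 cyclin-dependent kinases, 6 inhibitors of these kinases, the 3 members of the retinoblastoma (RB) family, 8 E2F transcription factors, the 3 CDC25 phosphatases with their antagonist WEE1, 4 mitotic kinases and the 6 subunits of the MCM helicase. The genes are known for their function in the cell cycle, the rule for their choice used no peak values, and they were 45 of the 21000 mouse protein-coding genes with a curated RefSeq transcript. Earlier results of these data were known when this list and the further gene list below were chosen. All 45 were autosomal. A gene was counted as bound in a replicate when a ChIP-seq peak lay within 2 kb of one of its annotated transcription start sites, measured from the nearest edge of the peak (mm10 coordinates throughout). The study mapped SOX3, ZBTB16 and SALL4 to find genes that these factors contact in postnatal spermatogonia. Results rest on 2 biological replicates of SOX3 ChIP-seq from testis of C57BL/6J-background mice at postnatal day 7 (P7), with no other genotype, treatment or age among them. The labels list a pair of SOX3 antibodies for each library, and the starting material was seminiferous tubule tissue, so a peak list sums over all cells in the tubules and the share of cells that carried a given peak cannot be read from it. A pair of SOX3 ChIP-nexus lists, from a variant of ChIP in which an exonuclease trims the DNA up to the bound protein, was checked at the same genes. The lists hold regions and not transcripts, so the labelled tissue was not checked against marker genes here.

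A cell divides when cyclins, whose levels rise and fall, switch on their partner kinases. D cyclins with CDK4 or CDK6, then E cyclins with CDK2, phosphorylate RB proteins and so release E2F factors, which transcribe the genes of DNA replication, MCM subunits included. A and B cyclins with CDK1 carry the cell through G2 and mitosis, gated by the opposing actions of CDC25 phosphatases and WEE1. In the P7 testis, spermatogonia are the mitotically dividing germ cells, and SOX3 is a transcription factor of the undifferentiated ones.

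All 45 cell cycle genes had a promoter peak in replicate 1, where 67.8% of all protein-coding genes had one. In replicate 2 the count was 44 of 45, beside 60% of protein-coding genes. The same 44 genes (97.8%) were bound in both replicates, against 57.9% of protein-coding genes. At all 44 the 2 lists placed their peaks over one another by at least 1 bp. Of the 12162 protein-coding genes bound in both, 11876 showed such overlap. Among autosomal protein-coding genes the share bound in both was 59.3%. The one gene outside this set was Ccna1, which encodes the A-type cyclin of the germ line, required for meiosis in males. Ccna1 had a 573 bp peak over its start site in replicate 1 with a q score of 38.6 (the caller's −10log10 of the false discovery rate, deposited only above 30) and a log2 ratio of ChIP over input of 2.45. That q score ranked at the 6.40th percentile of bound protein-coding genes. In replicate 2 the nearest peak to Ccna1 began 3594 bp upstream of the start site, with a q score of 34.8. The replicate 1 peak at Ccna1 also lay within 2 kb of a start site of 4931419H13Rik, so it cannot be given to either gene alone.

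Strength did not set the cell cycle promoters apart to the same degree as frequency. The median q score of their best promoter peaks was 202 in replicate 1 and 87.0 in replicate 2 (mean 144.6 ± 81.5 (SD, n = 2)). Over all bound protein-coding genes the medians were 171 and 80.1 (mean 125.3 ± 63.9 (SD, n = 2)). In replicate 1, 27 of the 45 genes lay above the protein-coding median, and in replicate 2 this held for 22 of 44. Median log2 ratios were 3.83 and 2.63 for the cell cycle genes, and 3.70 and 2.70 for all bound protein-coding genes. The peaks spanned a median of 1807 bp in replicate 1 and 1446.5 bp in replicate 2, beside 1648 bp and 1333 bp. They covered the start site itself at 44 of 45 genes (97.8%) in replicate 1 and 40 of 44 (90.9%) in replicate 2. Over all bound protein-coding genes the shares were 89.7% and 87.5%. With a q score above 60 required in both replicates, 33 of the 45 genes (73.3%) remained, against 39.5% of protein-coding genes. The same comparison among genes with CpG-rich promoters is given below, where the shares were close. The difference in share had closed by a score of 150, which 4 cell cycle genes (8.89%) exceeded in both replicates, beside 8.35% of protein-coding genes. No cell cycle gene exceeded 200 in both, where 2.99% of protein-coding genes did. The cell cycle genes were thus bound nearly throughout, at scores in the middle of the range for bound promoters.

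**Figure D1:**
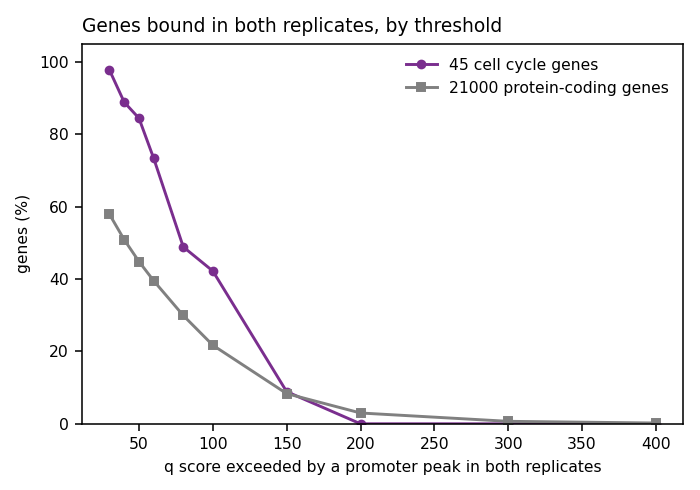
Share of genes (vertical axis, %) whose best promoter peak exceeded a given q score in both replicates (horizontal axis), for the 45 cell cycle genes and for all 21000 protein-coding genes. The cell cycle curve starts at 97.8% against 57.9% at the deposited threshold of 30, and the curves meet near a score of 150.

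The replicates ordered the genes alike but on different scales. Across the 44 genes bound in both, q scores correlated (Spearman's rho 0.739, Pearson's r 0.708), while rho was 0.836 over the 12162 protein-coding genes bound in both. These values are across genes, which share the same pair of libraries, and are given as a description. The q score was higher in replicate 1 at 42 of the 44 genes, by a median ratio of 2.50. This was much as for the 12162 protein-coding genes bound in both, where 96.2% scored higher, by a median ratio of 2.30. The 2 exceptions among the 44 were both MCM subunits. Mcm2 scored 114 in replicate 1 and 128 in replicate 2, and Mcm3 scored 39.2 and 63.8. Log2 ratios followed each other less closely (rho 0.484), and widths about as closely as q scores (rho 0.770). A score is therefore compared below only within its own replicate.

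**Figure D2:**
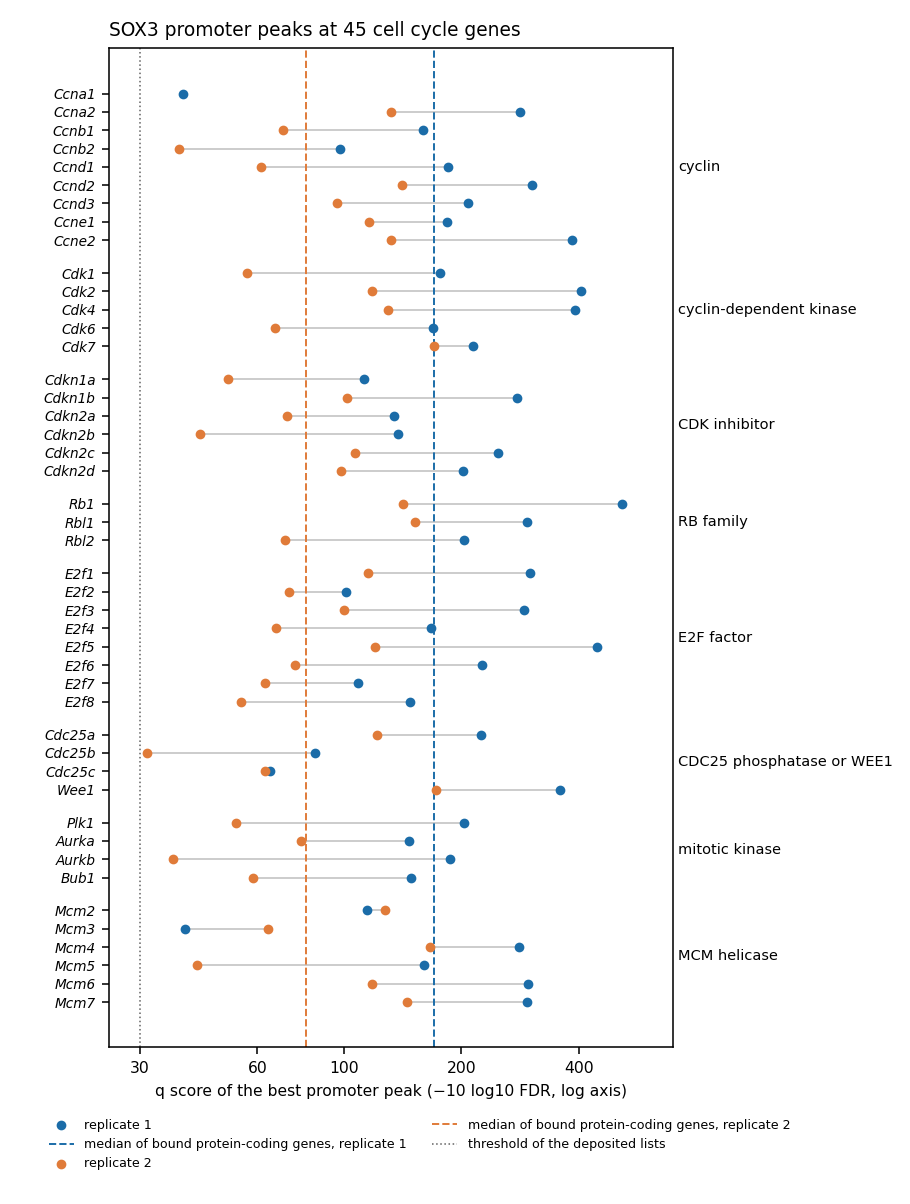
Best promoter q score of each of the 45 cell cycle genes (horizontal log axis, −10log10 of the false discovery rate) in replicate 1 and replicate 2, grouped by role, with dashed lines at the medians of all bound protein-coding genes (171 and 80.1) and a dotted line at the threshold of 30. Ccna1 has a point in replicate 1 only, and the points of replicate 1 lie to the right of replicate 2 except at Mcm2 and Mcm3.

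Among the cyclins, the 3 D-type genes carried the broadest peaks in replicate 1, and Ccnd2 and Ccnd3 did so in replicate 2. D cyclins are the growth factor-responsive cyclins that pair with CDK4 and CDK6. At Ccnd2, which is known for its expression in spermatogonia, one peak ran 7394 bp in replicate 1 (q score 304, log2 ratio 4.86) and 6973 bp in replicate 2 (141, 3.56). These widths stood at the 98.7th and 99.9th percentile of bound protein-coding genes, and most of each peak lay upstream of the start site, a region it shared with the start of 9330179D12Rik. At Ccnd1 a 4750 bp peak covered the start site in replicate 1 (q score 185). In replicate 2 the same promoter held 3 separate peaks, of which the best (q score 61.1, 1109 bp wide) lay 1039 bp upstream and the one over the start site scored 42.1. The remaining one (q score 51.2) lay 1703 bp downstream of the start site, outside the replicate 1 peak. Replicate 2 thus had no single broad peak at Ccnd1, and the width of its best peak stood at the 34.6th percentile. Ccnd3 has 2 annotated start sites, and both were covered in both replicates. The upstream site had q scores of 205 and 63.8, and the downstream site had 209 and 96.2 under peaks of 4048 and 4669 bp. A further peak, with scores of 277 and 139.6, lay just outside the window, 2271 and 2253 bp upstream of the upstream site. Promoter peaks of at least 3 kb were found at 6 cell cycle genes in replicate 1 (13.3% of those bound, beside 11.8% of bound protein-coding genes) and at 4 in replicate 2 (9.09% beside 4.09%). The 4 were Ccnd2, Ccnd3, Cdk6 and E2f3, and replicate 1 added Ccnd1 and Mcm7.

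The other cyclin promoters carried single peaks, from narrow ones at Ccna1 (573 bp in replicate 1, the 4.3rd percentile) and Ccnb2 (573 bp in replicate 2) to a broad one at Ccne1 (2885 bp in replicate 2, the 95.3rd percentile). Ccne2, one of the E cyclins that drive entry into S phase with CDK2, was among the 5 highest of the 45 genes by mean rank, with q scores of 386 and 132 (log2 ratios 4.75 and 3.49). Ccne1, its paralog, had 183 and 116. Ccna2, the A cyclin of mitotic cells, was high in both replicates (282 and 132) but its peaks began 334 and 359 bp downstream of the start site, so that in neither replicate did a peak cover it. The mitotic cyclins Ccnb1 (159 and 69.6) and Ccnb2 (97.9 and 37.7) lay below the protein-coding median in both replicates. The germ-line cyclin Ccna1 had the lowest score of the 9 cyclins in replicate 1, and its mitotic counterpart Ccna2 a higher one than all others but Ccne2 and Ccnd2.

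**Figure D3:**
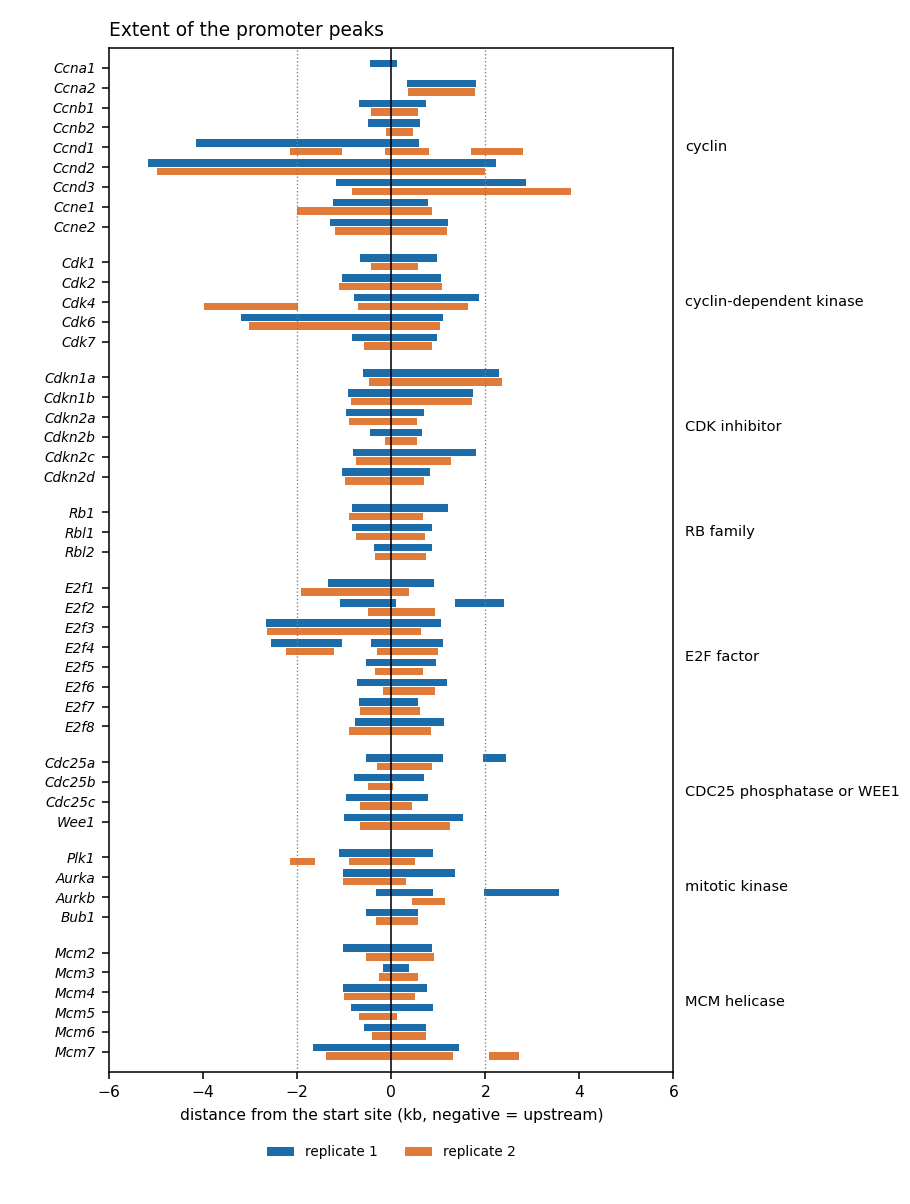
Extent of the promoter peaks at the 45 cell cycle genes in replicate 1 and replicate 2, drawn as bars against the distance (kb, negative upstream) from 1 start site per gene. That site is the one nearest to the best peak of replicate 1, and dotted lines mark the 2 kb window. Peaks at the upstream start sites of Ccnd3 and E2f2 lie outside the drawn range and are not shown, among them the best E2f2 peak of replicate 2. Most bars straddle 0; those of Ccna2 lie wholly downstream, and single bars of Ccnd2, Cdk6 and E2f3 run from over 2 kb upstream to past the start site in both replicates.

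Of the kinases, Cdk4 (q scores 392 and 129.8, log2 ratios 5.18 and 3.22) was also among the 5 highest. CDK4 is the partner of the D cyclins in phosphorylating RB. Cdk2, the E and A cyclin partner, had scores of 406 and 118 under a peak that also lay at the start of Pmel. Cdk7, the kinase that activates the others, had 215 and 171. Cdk6 (169 and 66.5) lay below the protein-coding medians of 171 and 80.1 in both replicates. Cdk1 (177 and 56.3), the mitotic kinase, lay below the median in replicate 2 only.

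The 6 inhibitor genes were bound in both replicates, with q scores from 113 to 278 in replicate 1 and from 42.7 to 107 in replicate 2. The highest were Cdkn1b, which encodes p27 (278 and 102), and Cdkn2c, which encodes p18INK4c (248 and 107). The lowest was Cdkn1a, the p53 target that encodes p21 (113 and 50.3), in replicate 1 and Cdkn2b, which encodes p15INK4b (138 and 42.7), in replicate 2. Cdkn2d, the p19INK4d gene, lay between them with 202 and 98.1. The peaks at Cdkn2a separated its start sites. This locus makes p19ARF, which stabilises p53, from the upstream start and the kinase inhibitor p16INK4a from a start 12427 bp downstream. The upstream start was covered in both replicates (q scores 134 and 71.3, log2 ratios 3.27 and 2.18). From the p16INK4a start the nearest peaks lay 5184 bp away in replicate 1 (q score 38.9) and 8491 bp away in replicate 2 (40.5), both downstream. The upstream peak also lay at a start site of Gm12610. At Cdkn1a, the main start site was covered, and the alternative start upstream of it lay 2186 and 2308 bp from the same peak, just beyond the window.

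**Figure D4:**
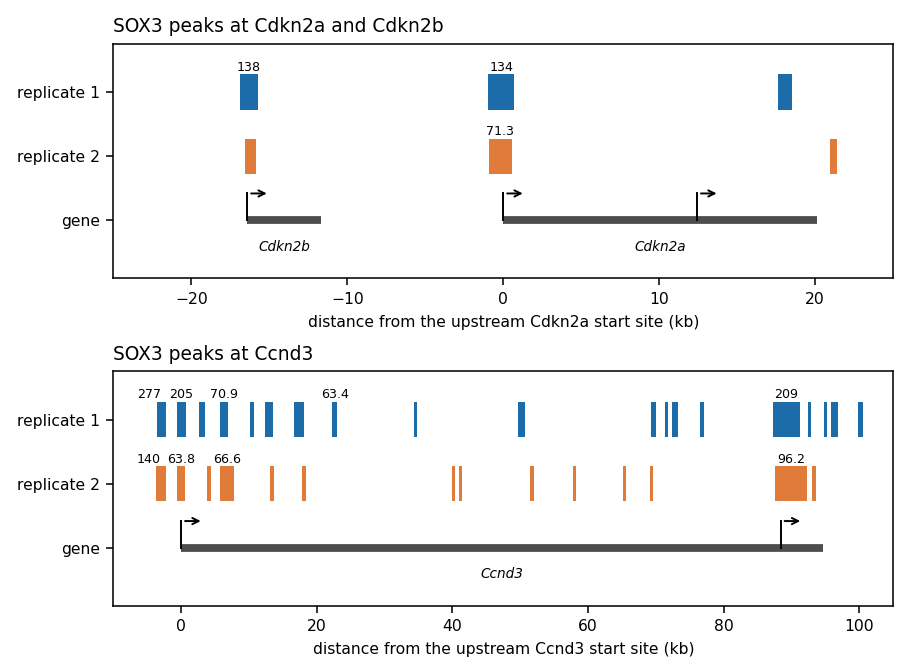
SOX3 peaks in replicate 1 and replicate 2 across Cdkn2b and Cdkn2a (upper panel) and Ccnd3 (lower panel), against the distance in kb from the upstream start site of Cdkn2a or Ccnd3, with arrows at annotated start sites and q scores printed over peaks of 60 or more. The upstream Cdkn2a start is covered in both replicates (134 and 71.3) and the downstream start in neither, while Ccnd3 carries peaks at both starts and along the span between them.

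The sequences before the start sites of these 2 inhibitor genes are shown because only 1 start of each had a peak within 2 kb in both replicates. They are the 250 bases that precede each start in RefSeq (GRCm38.p6), read 5′ to 3′ on the gene's strand, with CpG dinucleotides in capitals. The Cdkn2a sequences lie at chr4:89294620-89294869 (p19ARF) and chr4:89282193-89282442 (p16INK4a), both on the minus strand. The Cdkn1a sequences lie at chr17:29093519-29093768 (main start) and chr17:29090729-29090978 (upstream start), both on the plus strand.
Cdkn2a p19ARF start, peak in both replicates: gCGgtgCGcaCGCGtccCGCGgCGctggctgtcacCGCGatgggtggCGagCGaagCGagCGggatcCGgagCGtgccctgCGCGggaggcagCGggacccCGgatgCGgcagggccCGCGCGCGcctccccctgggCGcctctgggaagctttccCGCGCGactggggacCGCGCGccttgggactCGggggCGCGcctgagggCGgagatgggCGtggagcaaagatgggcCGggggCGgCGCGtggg
Cdkn2a p16INK4a start, no peak within 2 kb: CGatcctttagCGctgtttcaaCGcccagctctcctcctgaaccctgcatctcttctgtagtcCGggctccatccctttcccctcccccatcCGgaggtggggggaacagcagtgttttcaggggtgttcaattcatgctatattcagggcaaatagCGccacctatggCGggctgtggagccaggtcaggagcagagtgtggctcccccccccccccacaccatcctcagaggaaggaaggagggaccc
Cdkn1a main start, peak in both replicates: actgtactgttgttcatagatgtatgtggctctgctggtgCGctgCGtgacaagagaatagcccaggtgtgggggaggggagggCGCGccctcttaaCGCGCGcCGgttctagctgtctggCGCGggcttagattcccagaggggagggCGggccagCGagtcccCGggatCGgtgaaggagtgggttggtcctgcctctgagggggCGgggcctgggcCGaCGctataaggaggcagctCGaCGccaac
Cdkn1a upstream start, no peak within 2 kb: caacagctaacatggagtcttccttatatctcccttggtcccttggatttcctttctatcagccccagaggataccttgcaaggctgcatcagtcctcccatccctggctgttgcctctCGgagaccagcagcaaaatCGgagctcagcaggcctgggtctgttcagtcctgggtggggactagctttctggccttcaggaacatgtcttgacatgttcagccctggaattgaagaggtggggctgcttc
The covered starts held 40 and 19 CpG dinucleotides in these bases, and the uncovered starts held 7 and 2.

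Occupancy rose with CpG content across all promoters. CpG islands are stretches of CpG-rich, mostly unmethylated DNA at the starts of broadly expressed genes. Promoter sequences of 300 bases (250 before to 50 after the start, RefSeq) were at hand for 34 of the 45 genes, 41 sequences in all. A sequence was called CpG-rich when its CpG count was at least 0.6 of that expected from its C and G content and its GC content was at least 50%. This held for 35 of the 41 cell cycle sequences (85.4%) and for 46.5% of the 20488 protein-coding sequences. Of all CpG-rich sequences, 89.7% had a peak within 2 kb of their start in both replicates, and of the others 28.9%. Of the cell cycle sequences, 34 of the 35 CpG-rich ones and 4 of the 6 others had one. Counted by gene, 32 of the 33 cell cycle genes with a CpG-rich sequence (97.0%) were bound in both, beside 89.8% of such protein-coding genes. With a q score above 60 required in both, the shares were 69.7% and 68.4%. The median best q scores of these cell cycle genes were 183 in replicate 1 and 76.3 in replicate 2. For all bound protein-coding genes with a CpG-rich sequence they were higher, at 212 and 92.0. The 11 cell cycle genes without a sequence, all bound in both, are not in these values. Of the 6 sequences that were not CpG-rich, the 2 without a peak were the p16INK4a start and the upstream Cdkn1a start. The 4 with one were the upstream Ccnd3 start, a Cdkn2c start, the downstream E2f2 start and Mcm3. The CpG-rich exception was Ccna1, with a CpG ratio of 0.85 and a GC content of 74%. Counted by start site, 52 of the 55 sites of the 45 genes had a peak in both replicates, beside 56.8% of the start sites of protein-coding genes. A part of CpG content in the difference between cell cycle genes and all genes was not tested.

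**Figure D5:**
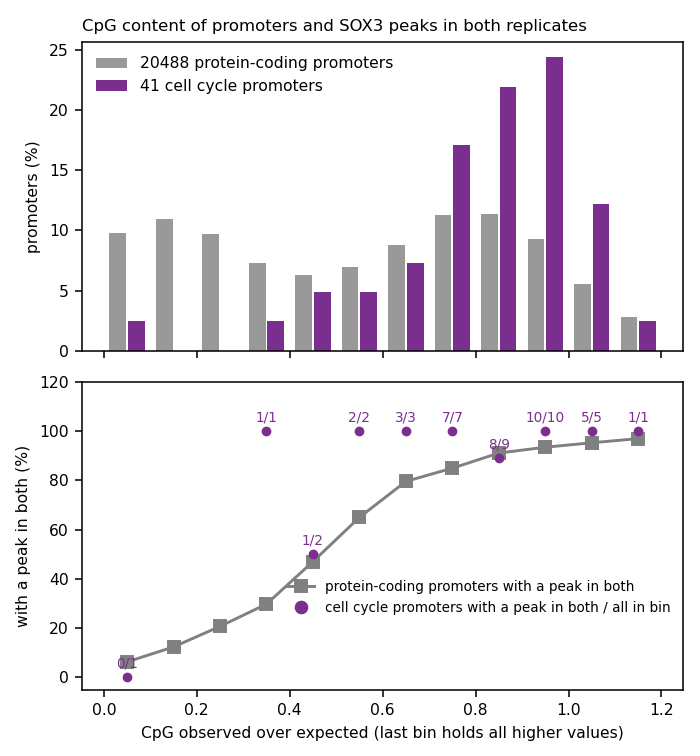
Upper panel, distribution of the CpG observed over expected ratio (horizontal axis, bins of 0.1) for 20488 protein-coding and 41 cell cycle promoter sequences (vertical axis, %). Lower panel, share of the sequences in each bin with a peak in both replicates, as squares for protein-coding genes and circles for cell cycle genes with their counts; the squares rise from 6.32% in the lowest bin to 96.9% in the highest.

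The RB family, with 3 genes, had the highest median score of the 8 roles in both replicates. These pocket proteins hold E2F factors inactive until cyclin-dependent kinases phosphorylate them. Rb1, the retinoblastoma gene itself, ranked first of the 45 genes, with q scores of 516 and 142 (95.9th and 83.9th percentile, log2 ratios 5.30 and 2.95). Rbl1, which encodes p107, had 295 and 153, and Rbl2, which encodes p130, had 203 and 70.7. The Rbl2 score in replicate 2 lay below the protein-coding median of 80.1. The family medians of 295 and 142 compare with 202 and 87.0 for all 45 genes.

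The 8 E2F genes were all bound in both replicates. They include activators (E2f1 to E2f3), repressors (E2f4 to E2f6) and the atypical repressors E2f7 and E2f8. E2f5 was the highest of them in both replicates (q scores 447 and 120.5, log2 ratios 5.35 and 2.87). The activators E2f1 (301 and 115) and E2f3 (290 and 99.9, under peaks of 3730 and 3269 bp) came next in replicate 1. The atypical E2f7 (109 and 62.6) and E2f8 (148 and 54.4) lay below the protein-coding median in both replicates, as did E2f2 (101 and 72.2). The 2 start sites of E2f2 had separate peaks, and its best peaks lay at different sites in the 2 replicates. The upstream site had 74.1 and 72.2, and the downstream site had 101 and 36.7. E2f6 had 227 and 74.9. At E2f4 the start site was covered in both replicates (q scores 167 and 48.8), but the best peak of replicate 2 (67.1) was another one, 1209 bp upstream at a start site of Exoc3l.

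Wee1, which encodes the kinase that restrains CDK1, was second among the 45 genes by mean rank, with q scores of 358 and 172 (log2 ratios 5.34 and 3.40). Its score in replicate 2 was the highest of the 44. Among the phosphatases that oppose it, Cdc25a, which acts at the G1 to S transition, had 225 and 122. Cdc25b and Cdc25c, the mitotic phosphatases, were lower, with 84.3 and 31.2 for Cdc25b and 64.7 and 62.9 for Cdc25c. The Cdc25b score of replicate 2 was the lowest of any cell cycle gene counted as bound and stood just inside the threshold of 30.

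The 4 mitotic kinases had the lowest median score of the 8 roles in replicate 2, at 55.6, and none lay above the protein-coding median of 80.1. Plk1, the kinase of mitotic entry and cytokinesis, had 203 in replicate 1 and 52.9 in replicate 2. Bub1, a spindle checkpoint kinase, had 148 and 58.4. Aurka, the spindle pole kinase, had 147 and 77.7, under a peak shared with the start of Cstf1. Aurkb, the kinase of the chromosomal passenger complex, had 187 over its start site in replicate 1, while in replicate 2 its peak (36.5) lay 442 bp downstream. In replicate 1 the median of the 4 was 167, close to the protein-coding median of 171. Only Aurka of the 4 passed a score of 60 in both replicates.

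The MCM genes encode the ring of 6 proteins that unwinds DNA at replication origins. Mcm4 (q scores 282 and 167), Mcm6 (296 and 118) and Mcm7 (294 and 145) were above the protein-coding median in both replicates. The peak at Mcm4 also lay at the start of Prkdc, which is transcribed away from it, and the peak at Mcm7 lay at the start of Ap4m1. Mcm5 had 160.3 and 42.0. Mcm2 and Mcm3 were the genes described above with the higher score in replicate 2, and the 542 bp peak of Mcm3 in replicate 1 (q score 39.2) was the second weakest of the 45.

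The E2F motif was frequent in the promoter sequences of the MCM genes. The motif was searched as TTTGGCGC, TTTCGCGC, TTTCCCGC or TTTGCCGC on both strands of the 300 bases. It was found in 12 of the 41 cell cycle sequences (29.3%), in 2.91% of all protein-coding sequences and in 4.96% of the CpG-rich ones. Of the 5 MCM genes with a sequence 4 held it, namely Mcm3, Mcm5, Mcm6 and Mcm7 (at 1 of its 2 starts). The 250 bases before the starts of Mcm5 (chr8:75109259-75109508, plus strand) and Mcm6 (chr1:128359706-128359955, minus strand) are shown with E2F motifs in capitals, because both promoters lay under SOX3 peaks and held pairs of overlapping motifs.
Mcm5: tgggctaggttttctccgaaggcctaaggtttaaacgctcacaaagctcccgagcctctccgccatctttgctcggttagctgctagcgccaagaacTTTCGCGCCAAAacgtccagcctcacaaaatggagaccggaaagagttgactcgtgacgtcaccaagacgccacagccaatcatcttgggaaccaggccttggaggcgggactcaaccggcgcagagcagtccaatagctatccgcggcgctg
Mcm6: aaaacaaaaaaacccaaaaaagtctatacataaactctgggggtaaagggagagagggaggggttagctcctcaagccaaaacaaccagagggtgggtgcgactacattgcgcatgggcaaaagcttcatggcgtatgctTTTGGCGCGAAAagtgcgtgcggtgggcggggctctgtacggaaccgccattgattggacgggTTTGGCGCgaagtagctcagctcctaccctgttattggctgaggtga
The CCAAT box, the binding word of NF-Y, was found as CCAAT in 63.4% of the cell cycle sequences and 38.4% of all. The cell cycle homology region, searched as TTTGAA, was in 24.4% and 15.3%. SOX motifs, searched as AACAAT or ACAAAG, were in 8 of the 41 sequences (19.5%), beside 23.8% of all protein-coding sequences and 13.9% of the CpG-rich ones. The cell cycle share lay between the share of all promoters and that of the CpG-rich ones, the class to which most cell cycle sequences belonged. These counts describe letters in a fixed window, and they do not cover the rest of each peak.

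Away from the promoters, peaks in the gene body were about as common at cell cycle genes as elsewhere. Such a peak overlapped the gene and lay over 2 kb from all of its start sites. In replicate 1, 21 genes (46.7%) had at least 1, beside 40.9% of protein-coding genes. In replicate 2 the count was 15 (33.3%, beside 32.2%), and 13 genes (28.9%, beside 26%) had such peaks in both replicates. At 10 of the 13 a peak of one replicate overlapped a peak of the other. Most of these peaks were weak, since 7 of 42 in replicate 1 and 3 of 30 in replicate 2 had a q score above 60.

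Of the 13 genes with gene body peaks in both replicates, Rb1 had the strongest one in replicate 2, in an intron, with q scores of 129 and 104 (chr14:73237632-73238984 in replicate 1). It lay within 2 kb of a start of Lpar6, a lysophosphatidic acid receptor gene nested in Rb1. At Mcm7 the shared peak (q scores 52.2 and 73.2) had its midpoint in an intron and lay within 2 kb of Mir106b, Mir93 and Mir25, a microRNA cluster known for its promotion of G1 to S progression. The replicate 1 peak was 6049 bp wide, ran past the end of Mcm7 and also came within 2 kb of a start of Cops6, while that of replicate 2 was 1009 bp wide. At E2f4 the shared peak, 149 and 36.6, lay within 2 kb of a start of the neighbouring gene Elmo3. In replicate 1, 2 further strong peaks counted as gene body peaks of Cdkn2d (179.6, within 2 kb of a start of Kri1) and Cdk4 (134, within 2 kb of starts of A730063M14Rik and Tspan31). Each overlapped a replicate 2 peak that did not count as one for the same gene. These peaks all lay within 2 kb of other transcripts, so their assignment to the cell cycle gene is uncertain.

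Ccnd3 had the most gene body peaks of the 45 genes, 13 in replicate 1 and 11 in replicate 2, all in introns. Of the 11, 4 overlapped a peak of replicate 1. The strongest of them lay 5670 and 5776 bp downstream of the upstream start (q scores 70.9 and 66.6). Ccnd2 had 3 in each replicate, with 1 overlapping pair (37.1 and 40.7), and Ccnd1 had 2 and 1, with an overlapping pair of 44.7 and 37.7. Cdk6 had an overlapping pair 121926 and 121941 bp downstream of its start, in an intron, with scores of 44.1 and 30.1. E2f3 (60.2 and 50.02), Cdc25a (32.8 and 36.5) and Mcm3 (35.7 and 57.2) each had 1 overlapping pair. E2f1, E2f7 and E2f8 had peaks in both replicates, with scores between 31.1 and 38.9, that did not overlap.

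Other genes of the cell cycle machinery gave a similar picture. The list held 79 genes: partners of E2F and the DREAM complex, further cyclins, kinases and inhibitors, origin licensing and firing factors, spindle checkpoint and kinetochore genes, the anaphase-promoting complex and damage checkpoint genes. Of these, 77 (97.5%) were bound in replicate 1 and 75 (94.9%) in replicate 2, beside 67.8% and 60% of protein-coding genes. In both replicates 75 (94.9%) were bound, beside 57.9%, and 60 (75.9%) passed a score of 60 in both, beside 39.5%. All 18 licensing and firing genes, all 14 of the anaphase-promoting complex and all 9 of the E2F partner and DREAM group were bound in both replicates. The highest by mean rank were Anapc5, a subunit of the anaphase-promoting complex (q scores 562 and 365), Cdk9, the kinase that releases paused RNA polymerase II (515 and 248), and Ccng2, a cyclin associated with cell cycle arrest (472 and 239). All 3 exceeded 200 in both replicates, which none of the 45 genes did. The 2 genes bound in neither replicate were Ccnb3, an X-linked B-type cyclin with a role in meiosis, and Aurkc, the Aurora kinase of meiotic cells. Their nearest peaks lay 146378 and 146576 bp from Ccnb3, and 76298 and 264428 bp from Aurkc. Cdca8, which encodes borealin, and Sfn, which encodes 14-3-3 sigma, were bound in replicate 1 only, with scores of 122 and 179.8. In replicate 2 the nearest peaks lay 2632 bp from the start of Cdca8 and 2293 bp from that of Sfn. Genes with a known role in meiosis were not a list examined here. Ccna1, Ccnb3 and Aurkc are named because they were not bound in both replicates, which was also true of Cdca8 and Sfn.

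The ChIP-nexus lists held no peak within 2 kb of a start site or in the body of any of the 45 genes. These lists were short, with 110 and 18 peaks on the mouse chromosomes, and they reached promoters of 38 protein-coding genes in replicate 1 and none in replicate 2. At that size they do not bear on whether the ChIP-seq peaks are present.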

How the data were processed

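The deposited files used here were the peak lists of 2 SOX3 ChIP-seq replicates and 2 SOX3 ChIP-nexus replicates, 4 of the 19 labelled samples; the other samples were not analysed here. Per the study's methods, the authors aligned reads to mm10 with Novoalign, placing a read that fits several sites at one of them at random, removed duplicates with Picard and called ChIP-seq peaks in each replicate with USeq against input, keeping a −10log10 FDR score above 30. No header names the columns of the deposited ChIP-seq lists, so the reading of their columns as position, p score, q score and log2 ratio is inferred from the caller's layout and the values. The ChIP-nexus lists, per the labels from MACS2 2.1.1, hold a score, fold enrichment, −log10 p and −log10 q as deposited; only their positions were used. The lists hold no read counts, so depth is unknown from them and no interval was computed.

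Start sites were those of curated RefSeq transcripts (NM and NR) on GRCm38.p6, chromosomes 1 to 19, X and Y. A gene was bound when a peak edge lay within 2 kb of any of its start sites, and its best peak was the one with the highest q score. Percentiles are among bound protein-coding genes of the same replicate. Groups followed the labels. The members, gene lists, motifs and alternatives were chosen with earlier results of these data known, and with 1 condition and 2 replicates no test was made. Genes given in full were those unbound in a replicate, the 5 highest by mean percentile, the D cyclins and those with gene body peaks in both replicates; from the 79 other genes, those unbound in both replicates and the 3 highest, with the 2 bound in 1 replicate added after their values were seen. Peak assignment (Python 3.11.15, pandas 2.3.3) was tested on simulated data, where all 200 planted distances were recovered, and checked against bedtools 2.31.1, which gave the same bound genes. Alternatives covered the score threshold, window, distance rule, annotation (GENCODE M21), replicate overlap, comparison genes and leaving out each replicate.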

Additional observations from a re-analysis of the deposited data

How the results depend on the processing

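Of 43 alternative values, 39 stayed within the margin set for them (1.5 times for a count, 1 SD between the replicates for other values) and 4 went beyond it. These margins are wide, since the SD of 2 libraries on different score scales is large. The number of cell cycle genes bound in both replicates stayed at 44 with a window of 1 kb, with distance taken from the peak midpoint, with GENCODE M21 start sites and with overlapping peaks required. It became 45 with a window of 5 kb, which takes in the replicate 2 peak near Ccna1, and 33 with a q score above 60. Of the 12 genes below that score, 10 lost only replicate 2, Mcm3 lost only replicate 1 and Ccna1 lost both. The share of protein-coding genes bound in both (57.9%) fell to 39.5% above a score of 60 and rose to 89.8% among genes with a CpG-rich promoter; single replicates gave 60.02% to 67.8%. The number of genes with gene body peaks in both replicates fell from 13 to 2 (Ccnd3 and Rb1) above a score of 60, where 3.09% of protein-coding genes had such peaks. Leaving out a replicate gave 44 to 45 bound genes, a median q score of 87.0 to 202 and a median log2 ratio of 2.63 to 3.83. No paired analysis was possible because no result comes from a test. The number of replicates limits these values, and the peak lists carry no read depth: a gene without a peak was below the authors' threshold in that library, which is not the same as unbound.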
